A study of Bos taurus with 57 samples.

Results

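A set of 84 genes with lower read counts in the anterior pituitary of bull calves on a low plane of nutrition was followed through the anterior pituitary, the arcuate nucleus and the testes. For each library, the CPM of a gene is its count per 1000000 counts of the library. Of the 24616 genes in the files, 13865 had a mean CPM of at least 1 in the high plane pituitary libraries. These were ordered by the share of pairs of 1 high and 1 low plane pituitary library in which the high plane library had the higher CPM, with ties ordered by the larger ratio of the group medians. The genes were thus chosen by their CPM in the pituitary libraries of both diets. The first 100 were taken and 16 listed identifiers, all of them among the first 100, were left out, which gave the 84 genes. A gene is called here by its rank in that order, from 1 to 100, because the files list Ensembl identifiers without names and 0 of the 24616 identifiers could be matched to a symbol in the reference used.

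The anterior pituitary is the gland that secretes growth hormone, prolactin, the gonadotrophins and the hormones that drive the thyroid and adrenal glands. It grows with the young animal, and its hormone output responds to feeding. The arcuate nucleus at the base of the hypothalamus senses metabolic state and controls the pituitary, and the testes respond to the gonadotrophins. Since the files give no names, nothing can be said here of what an individual gene of the set does, and no gene list, cell type marker or promoter could be consulted. The labelled tissues could therefore not be checked against named markers either.

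The animals were male Holstein-Friesian calves euthanised at 126 days of age. The high plane calves were fed milk replacer with concentrate without restriction, and the low plane calves a restricted amount of both. The sample labels give growth of 1.08 kg per day for the high plane and 0.5 kg per day for the low plane, while the design text of the series gives 1.2 kg per day for the high plane. There were 9 high and 10 low plane libraries of the anterior pituitary, 10 and 10 of the arcuate nucleus, and 10 and 8 of the testes, 57 in all, each a single-end mRNA library of bulk tissue. No calf, litter or sequencing batch is given for a library, so the p-values below measure the spread between these libraries. Each tissue holds all its cell types together, so fewer cells of a type and less RNA per cell cannot be told apart.

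Total counts ran from 898979 reads in the arcuate nucleus library C22 to 32009433 reads, with group medians between 14180871 and 18655866. In the testes the low plane libraries were shallower (median 14180871 reads, n = 8) than the high plane libraries (median 18655866 reads, n = 10). In all 3 tissues some libraries stood apart on a library score, which is the mean log2 CPM of 200 genes taken from the main axis of variation in the other 2 tissues. The 13 libraries concerned had a score of 1.58 or less, and all others a score of 3.41 or more. They were A57, A51 and A18 among the high plane pituitary libraries, A10 and A47 among the low plane pituitary libraries, C6 and C33 among the low plane arcuate libraries, B42 among the high plane testes libraries, and B21, B2, B15, B26 and B20 among the low plane testes libraries. The score is thus uneven between the diets in the testes, with 5 of 8 low plane libraries against 1 of 10 high plane libraries, and results there are given with and without these libraries.

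The set itself moved with that score. Within the diets that held such libraries, 63 of the 82 genes measured in the pituitary (76.8%) were higher in the libraries that stood apart than in the other libraries, by a median of 0.60 on the log2 scale, against 49.1% of all genes tested. In the arcuate nucleus 49 of 60 (81.7%, median 0.71) and in the testes 67 of 82 (81.7%, median 0.68) were higher, against 47.6% and 50.9% of all genes.

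The libraries of the 2 diets in the anterior pituitary chose the set, so its values there are a description and carry no test. For 17 of the 84 genes every high plane library lay above every low plane library in all 90 pairs, which 0.173% of the 13865 genes did, and at the other end a gene had 81 of 90 pairs. The ratio of the medians, high over low, ran from 1.21 to 7.35 with a median of 2.82. It was at least 4 for 28 genes, at least 2 for 62 genes and under 1.5 for 4 genes. The mean CPM of a gene on the high plane ran from 1.02 to 117.5, with a median of 4.64 over the set, and on the low plane the mean of 26 genes was under 1 CPM.

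The gene of rank 1, ENSBTAG00000021069, had a CPM of 4.02 in the lowest, 5.66 in the median and 11.5 in the highest of the 9 high plane pituitary libraries. On the low plane the values were 0.40, 0.86 and 3.40 CPM (n = 10). The groups did not overlap, and the 3 highest of the high plane libraries were those that stood apart on the library score. The gene of rank 2 ran from 3.56 over a median of 4.05 to 6.96 CPM on the high plane and from 0.48 over 0.63 to 2.97 CPM on the low plane. The gene of rank 3 ran from 3.46 over 4.64 to 11.5 CPM on the high plane and from 0.31 over 0.88 to 3.15 CPM on the low plane. Like the gene of rank 1, neither overlapped between the diets. The remaining genes of the first 10 ranks had 90 of 90 pairs as well, with ratios of medians from 4.32 at rank 10 to 5.22 at rank 4. The largest ratio of the set, 7.35, was that of rank 57, which had a mean of 1.02 CPM on the high and 0.24 CPM on the low plane and 85 of 90 pairs.

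**Figure D1:**
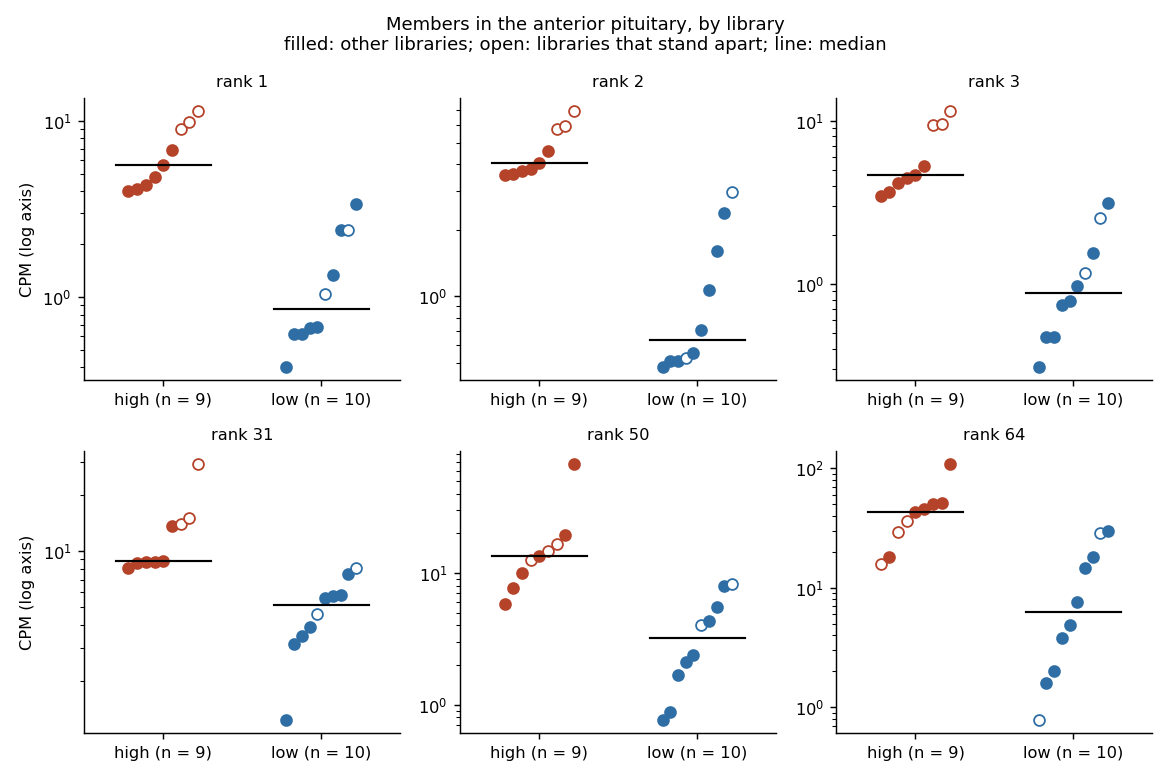
CPM (log axis) of 6 genes of the set in each anterior pituitary library, high plane (n = 9) and low plane (n = 10), with the median as a line and libraries that stand apart on the library score as open circles. The genes of ranks 1, 2 and 3 do not overlap between the diets, and those of ranks 50 and 64 have 1 high plane library far above the rest, at 67.6 and 108.6 CPM.

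The 5 genes with the highest mean CPM, a measure that also rises with the length of a gene, had ratios of medians under 2. Rank 75, with a mean of 117.5 ± 39.5 CPM (SD, n = 9) on the high plane, had a ratio of medians of 1.78. Ranks 95, 81, 63 and 84 followed with means of 115.2, 99.5, 86.0 and 74.8 CPM and ratios of 1.56, 1.74, 1.84 and 1.21. The last 2 genes inside the first 100 had 81 of 90 pairs, with medians of 5.20 and 2.33 CPM at rank 99 and of 1.41 and 0.68 CPM at rank 100. The first 2 genes outside had 81 of 90 pairs too, with medians of 1.41 and 0.70 CPM at rank 101 and of 1.47 and 0.75 CPM at rank 102. The ratio of medians alone thus set the edge, at 2.07 inside and 2.02 outside.

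In the quasi-likelihood fit of all genes, 82 of the 84 genes passed the filter on low counts in the pituitary, and ranks 11 and 57 did not. The log2 fold change, low against high plane, lay between -2.50 and -0.32 with a median of -1.45, where the median of all 14411 genes was 0.02. Of the 82 genes, 54 had an adjusted p (FDR) under 0.05 in edgeR's test, beside 71 of 14411 genes lower in all (0.493%). Without the 5 pituitary libraries that stood apart, 75 of 81 genes did, beside 429 of 14563 genes (2.95%), and the median was -1.35. The same contrast chose the genes, so these counts are given as description only. In the 48 pairs of libraries left, 41 genes had the high plane library above the low plane library in every pair, as 0.815% of the 13865 genes did, and none fell below 40 pairs. With the rule applied to those libraries alone, 39 of the 84 genes were still among the first 100.

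**Figure D2:**
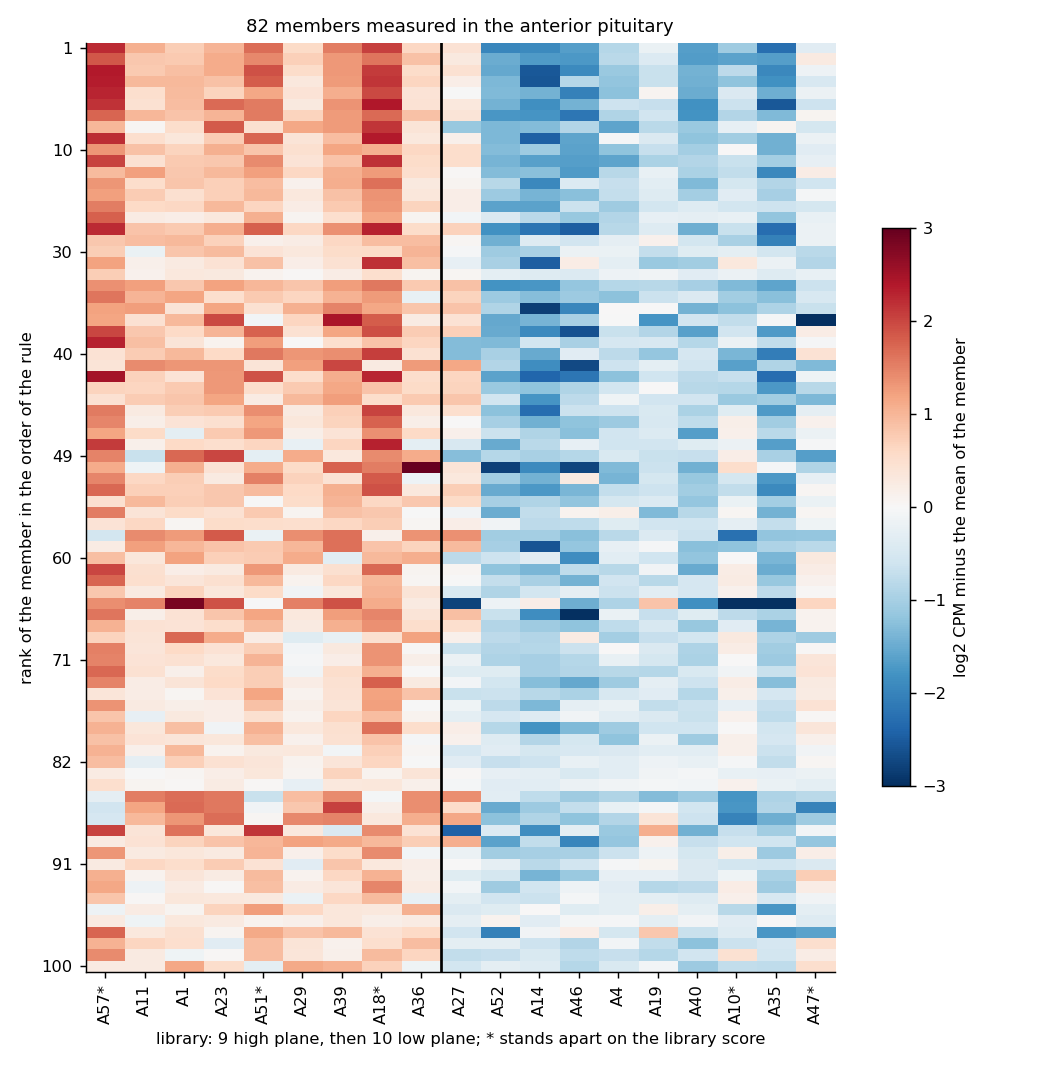
Log2 CPM of the 82 measured genes (rows, by rank) in the 19 anterior pituitary libraries (columns, high plane left and low plane right of the line, * for libraries that stand apart), minus the mean of the gene. The low plane library A27 is paler than the rest of its group, with a mean level of the set of 1.88 against 0.63 to 1.56 in the other low plane libraries, and rank 86 is lowest in A47 and A10.

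The mean log2 CPM over the 82 genes lay apart between the diets in the pituitary, as the choice of the genes made it. It ran from 2.28 to 3.06 in the 9 high plane libraries and from 0.63 to 1.88 in the 10 low plane libraries. Those of the low plane were the more spread, with a mean of 1.14 ± 0.41 (SD, n = 10) against 2.61 ± 0.28 (SD, n = 9). Library A27 was the highest low plane library for 35 of the 84 genes and A47 for 34. In A27, 34 genes reached into the range of the high plane libraries, in A47 43 genes, and in A35 none. On the high plane, A57 was the highest library for 27 genes and A18 for 23, both of them libraries that stood apart. Among the high plane libraries, A36 was lowest for 22 genes and fell into the low plane range for 40.

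The genes of the set also varied together around the diet means, with the libraries of both diets pooled. After removal of the diet means and of the library score, the median correlation between 2 genes of the set in the pituitary was 0.33 (82 genes, 19 libraries), against 0.02 for all pairs of genes tested, and 33.2% of the pairs were above 0.5 against 7.58%. With the diet means alone removed, the medians were 0.36 and 0.01, and the shares above 0.5 were 37.7% and 35.7%. All of these points share the same libraries and their depth, and the libraries are the ones that chose the set. For each gene the correlation with the mean of the other genes of the set was then taken, with diet and library score removed. It was above 0.7 for 38 genes, from 0.4 to 0.7 for 24, and 0.4 or less for 20. The closest followers were the genes of ranks 3 and 53 (r = 0.951 for both) and 26 (r = 0.944). Rank 99 went the other way (r = -0.377).

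Most genes with r above 0.4 had their highest level in the testes, and most of those with a lower r did not. The share of all genes highest in the testes is not given here. The rule used the pituitary levels in this comparison, but not those of the other 2 tissues. Levels are compared between tissues for the same gene only, as CPM, because no gene lengths were at hand. Of the 38 genes with r above 0.7, 36 had their highest mean CPM on the high plane in the testes, 1 in the pituitary and 1 in the arcuate nucleus. Of the 24 genes between, 22 were highest in the testes. Of the 20 genes at 0.4 or less, 11 were highest in the pituitary, 6 in the testes, with the arcuate nucleus highest for 3. These 3 classes were formed after their values were seen and were not tested. Their median ratios of medians in the pituitary, high over low, were 3.90, 1.94 and 2.30.

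Over the whole set, 66 of the 84 genes were highest in the testes, 13 in the pituitary and 5 in the arcuate nucleus. The mean CPM in the testes was a median of 2.24 times that in the pituitary, where the median over all 13865 genes past the floor was 1.18, and 53.6% of the set was at least 2 times higher in the testes against 22.3% of all. In the arcuate nucleus the median ratio was 0.37 against 1.08 for all genes, and 4.76% of the set was at least 2 times higher there against 21.9%. A mean of at least 1 CPM on the high plane was reached by 76 of the 84 genes in the testes and by 51 in the arcuate nucleus. The floor of 1 CPM in the pituitary was part of the rule and could not be failed there.

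**Figure D3:**
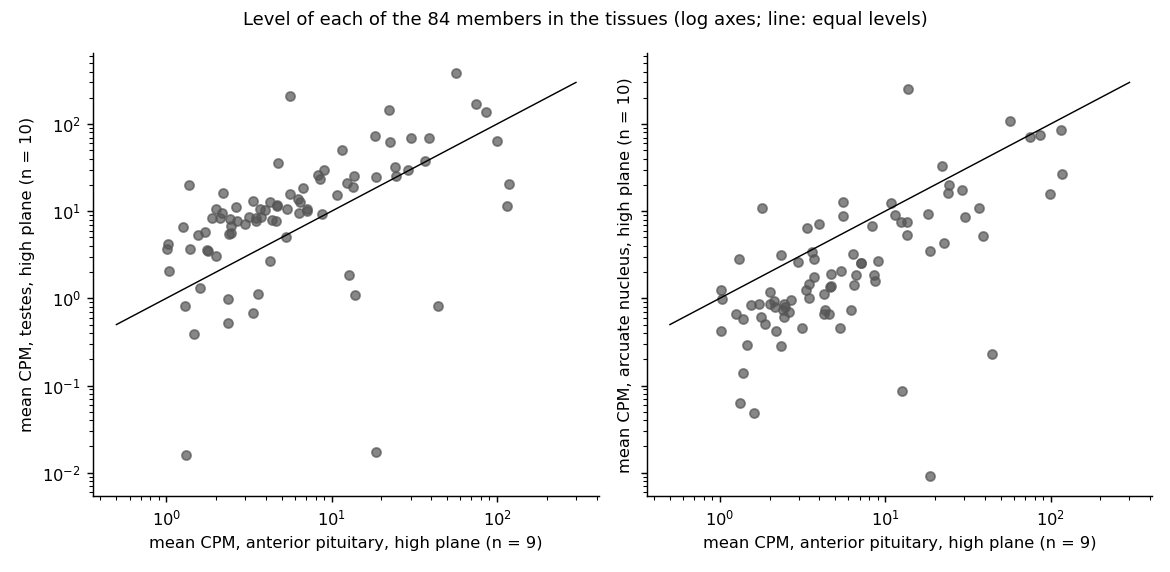
Mean CPM on the high plane of each of the 84 genes in the anterior pituitary (horizontal, n = 9) against the testes (left, n = 10) and the arcuate nucleus (right, n = 10), on log axes with the line of equal levels. Most points lie above the line in the testes and below it in the arcuate nucleus. Ranks 50 and 88 are among the lowest points in both panels, and rank 100 in the arcuate panel only.

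Some genes were read mostly in the pituitary, at least 5 times above both other tissues by mean CPM on the high plane. The high plane pituitary values in this comparison were also used by the rule. They were the genes of ranks 31, 50, 64 and 88, 4 in all. Rank 64 ran from 15.8 over a median of 43.3 to 108.6 CPM on the high plane and from 0.78 over 6.25 to 29.7 CPM on the low plane in the pituitary. The diets overlapped in that range, with 84 of 90 pairs. In the arcuate nucleus the same gene had a median of 0.23 CPM on the high and 0.17 CPM on the low plane, and in the testes 0.74 and 1.05 CPM.

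Rank 50 ran from 5.85 over 13.5 to 67.6 CPM on the high plane of the pituitary and from 0.76 over 3.23 to 8.29 CPM on the low plane. Over all 10 high plane arcuate libraries it had 2 reads, over the 10 high plane testes libraries 3, and over the low plane libraries 3 and 2. These counts are at or below 3 reads a group, too few to set a level for it outside the pituitary. Rank 31 ran from 8.05 over 8.77 to 29.3 CPM on the high plane and from 1.24 over 5.10 to 8.10 CPM on the low plane of the pituitary, where 89 of 90 pairs had the high plane library higher. Its median was 1.80 CPM in the high plane testes and 0.09 CPM in the high plane arcuate nucleus. On the low plane the mean of rank 31 was 1.45 CPM in the testes against 4.91 CPM in the pituitary, so that it was not 5 times lower there. Rank 88, the lowest of the 4, had medians of 0.78 and 0.22 CPM in the pituitary on the high and low plane, and 3 reads in either group of testes libraries. Among the arcuate libraries it had 13 reads over the high plane and 24 over the low plane libraries, 17 of these in C8 (1.12 CPM). Its mean was 0.06 CPM on the high plane there, and on the low plane 0.18 CPM against 0.36 CPM in the pituitary, so that it was not 5 times lower on the low plane.

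At the other extreme stood rank 29, with a mean of 253.0 CPM in the high plane and 222.1 CPM in the low plane arcuate nucleus, against 13.8 and 6.21 CPM in the pituitary and 1.10 and 0.63 CPM in the testes. Rank 30 had the highest mean CPM of the set in the testes, 380.3 CPM on the high and 259.4 CPM on the low plane, against 56.7 and 27.1 CPM in the pituitary. Rank 99 had 206.9 and 292.5 CPM in the testes and 5.60 and 2.88 CPM in the pituitary. The diet difference of rank 30 in the testes had an FDR of 0.057 and that of rank 99 an FDR of 0.206.

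The testes and arcuate nucleus libraries played no part in the rule, so the diets were tested there. By the study's methods the 3 tissues were taken from the same calves, so these are other libraries and not other animals than those that chose the set. In the testes, 82 of the 84 genes passed the filter, ranks 50 and 88 being too low. With edgeR's quasi-likelihood test, 7 of the 82 were lower and 6 higher on the low plane at an FDR under 0.05, beside 330 of all 15310 genes lower (2.16%) and 727 higher (4.75%). The median log2 fold change of the set was 0.22, against -0.01 for all genes, and 28 of the 82 were below zero, where 50.7% of all genes were. The set therefore did not fall as a whole in the testes in this fit. Leaving out 1 library gave from 1 lower and 0 higher genes (without B2) to 11 lower and 20 higher (without B42). The calls over all genes moved likewise. Without B2, 50 of 15431 genes were lower and 108 higher, and without B42, 1367 of 15260 were lower and 3233 higher. With library totals in place of TMM factors, 7 genes were lower and 13 higher, beside 311 and 2025 of all 15310 genes. With depth, as log2 of the total, added to the fit, 0 were lower and 0 higher at an FDR under 0.05 in edgeR's test. Of all 15310 genes, 2 were lower and 0 higher in that fit. The median of the set was then -0.06, with 45 of 82 genes below zero against 53% of all genes.

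The gene called lower with the smallest p was rank 54, ENSBTAG00000000660. It ran from 2.41 over a median of 3.41 to 4.99 CPM in the 10 high plane testes libraries and from 1.05 over 1.85 to 2.59 CPM in the 8 low plane libraries. The groups overlapped only where the high plane libraries B30 (2.41 CPM) reached below the low plane library B31 (2.59 CPM), with B42 (2.60 CPM) just above it. The log2 fold change was -0.91 ± 0.19 (SE), with an FDR of 0.0206 in edgeR's test. Counts were low, from 9 to 93 reads a library. In the pituitary it was the 1.82 and 0.63 CPM of the medians that placed it in the set, while in the arcuate nucleus the medians were 9.94 and 10.2 CPM.

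The other 6 genes called lower in the testes were those of ranks 40, 41, 44, 83, 85 and 86. Rank 40 had the largest change, with a median of 11.4 CPM on the high and 4.57 CPM on the low plane, which gave a change of -1.87 ± 0.54 on the log2 scale (SE, FDR 0.0455). Its high plane libraries reached 61.3 CPM, far above their median. Ranks 86 and 85 fell by 1.23 and 1.20 on the log2 scale, rank 41 by 1.02 and rank 44 by 0.76. Rank 83 fell by 0.65, from a median of 24.4 to 15.4 CPM. Within diets, 6 of the 7 genes called lower had lower values in the testes libraries that stood apart than in the others (median -0.24 on the log2 scale), whereas 67 of the 82 genes of the set had higher ones.

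The 6 genes called higher in the testes were those of ranks 5, 11, 37, 70, 92 and 97. Rank 97, ENSBTAG00000022583, had the largest rise, 1.19 ± 0.27 (SE) on the log2 scale with an FDR of 0.0234. Its CPM ran from 0.40 over a median of 0.59 to 1.13 in the high plane libraries and from 0.91 over 1.42 to 2.80 in the low plane libraries, that is, from 6 to 36 reads a library. The high plane libraries B49 and B54 and the low plane libraries B31 and B26 made up the overlap. Rank 11, ENSBTAG00000018399, ran from 2.34 over 4.36 to 5.41 CPM on the high plane and from 5.27 over 6.33 to 13.9 CPM on the low plane. The groups met between 5.27 and 5.41 CPM. The log2 fold change was 0.82 ± 0.22 (SE) with an FDR of 0.0383. Ranks 37, 70, 92 and 5 rose by 0.83, 0.77, 0.74 and 0.74 on the log2 scale. Ranks 69 (0.91) and 73 (0.84) had larger values than every gene called higher except rank 97, but were not called, with FDRs of 0.063 and 0.062. Of the 6 genes called higher, 5 were higher within diets in the testes libraries that stood apart, with a median of 0.64 over the 6 on the log2 scale. That was near the share of the whole set, 67 of 82 genes with a median of 0.68.

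The direction of the set in the testes also changed with the libraries that stood apart. With the library score as a covariate, 8 of the 82 genes were lower and 0 were higher at an FDR under 0.05 in edgeR's test. Of all genes, 4.44% were lower and 1.77% higher in that fit. DESeq2 on the counts without the score called 10 genes lower and 10 higher, beside 690 and 1282 of all 15310 genes. The median of the set with the score was -0.17, against -0.01 for all genes, and 59 of 82 genes were below zero, against 51.6% of all. Without the 6 testes libraries that stood apart, 9 high plane and 3 low plane libraries were left, and no gene of all 15935 tested had an FDR under 0.05. At an unadjusted p under 0.05, 21 of 82 genes were lower (10.4% of all genes) and 1 was higher (5.56% of all). The median was then -0.24, with 61 of 82 below zero, against 52.2% of all genes. The median of the set thus changed sign between these fits, from 0.22 to -0.17 and -0.24.

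All 3 classes of genes formed on the pituitary correlations changed sign in this way, and the classes were not tested against each other. In the testes without the libraries that stood apart, 35 of the 38 were below zero with a median log2 fold change of -0.30. Of the 24 genes in the middle class 15 were below zero (median -0.11), and of the 18 measured genes of the loosest class 11 (median -0.14). With all libraries the medians of the classes were 0.05, 0.32 and 0.32. None of the 6 rises called with all libraries was called with the score or without these libraries. Rank 97 kept a value of 0.89 with the score and of 0.84 without the libraries, and rank 5 went from 0.74 to 0.30 and 0.24.

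**Figure D4:**
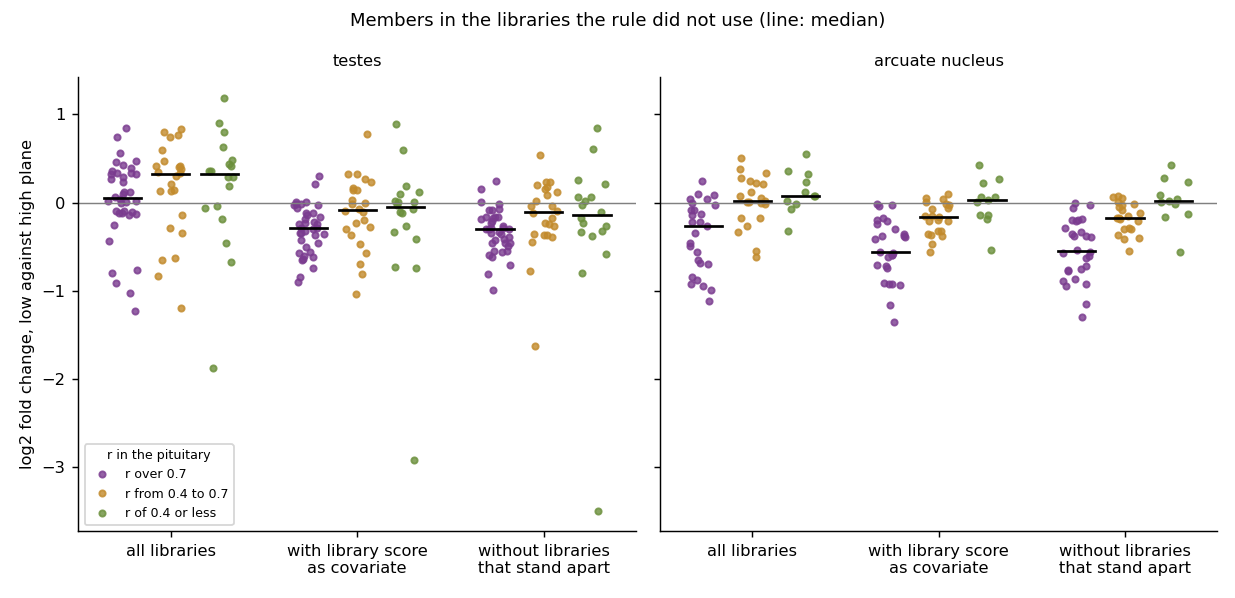
Log2 fold change, low against high plane, of the genes of the set in the testes (left) and arcuate nucleus (right) in 3 fits, coloured by the correlation with the other genes of the set in the pituitary, with the median of each class as a line. The class with r above 0.7 has medians of 0.05, -0.29 and -0.30 in the testes and of -0.26, -0.57 and -0.55 in the arcuate nucleus.

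In the arcuate nucleus 60 of the 84 genes passed the filter. None had an FDR under 0.05 in edgeR's test, and none of the 14757 genes tested did in either direction (0%). DESeq2 called none of the 60 either. At an unadjusted p under 0.05, 10 of the 60 genes were lower, where 1.72% of all genes were, and 1 was higher, where 8.2% of all genes were. The median log2 fold change of the set was -0.02, against -0.01 for all genes, and 34 of 60 genes were below zero, against 50.9% of all. The smallest p belonged to rank 58, with a mean of 1.37 CPM on the high and 0.71 CPM on the low plane. The change was -0.94 ± 0.31 on the log2 scale (SE), with an FDR of 0.477. Rank 39 had the highest value, 0.55, and was the 1 gene higher at an unadjusted p under 0.05.

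Without C6 and C33, the low plane arcuate libraries that stood apart, the FDR still called none of 61 genes. At an unadjusted p under 0.05, 14 were lower (2.08% of all genes) and 0 were higher (1.79% of all). The median was -0.21, and 50 of 61 genes were below zero, against 48.3% of all genes. All 28 measured genes of the class with r above 0.7 were below zero in that fit, with a median of -0.55, beside 17 of 21 and 4 of 11 in the other classes. Of the 61 genes measured in both tissues in this way, 37 were below zero in both the testes and the arcuate nucleus and 2 above zero in both. A further 13 were above zero in the testes and below it in the arcuate nucleus, and 9 the reverse. Since most genes of the set were below zero in each tissue by itself, counts of this size would arise without a link between the tissues.

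A single high plane library weighed on these arcuate values. The mean level of the set in C44 was 2.82, against 1.89 to 2.24 in the other 9 high plane libraries and 1.68 to 2.58 on the low plane. C44 held the highest value of its group for 51 of the 84 genes. It was at least 2 times the median of the other high plane libraries for 43 of the 81 genes with a median above 0 (53.1%), against 6.87% of all genes past the floor, and for 25 of the 38 genes of the closest class. Its library score, 4.96, was among the highest of the tissue. Without C44 alone, the median of the set turned to 0.07, with 23 of 60 genes below zero against 49.4% of all genes. Without C44, C6 and C33, 6 of 59 genes were lower at an unadjusted p under 0.05 (2.13% of all genes) and 0 were higher. The median was -0.15, with 42 of 59 genes below zero against 45.8% of all, and 24 of the 27 genes of the closest class were below zero with a median of -0.25.

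**Figure D5:**
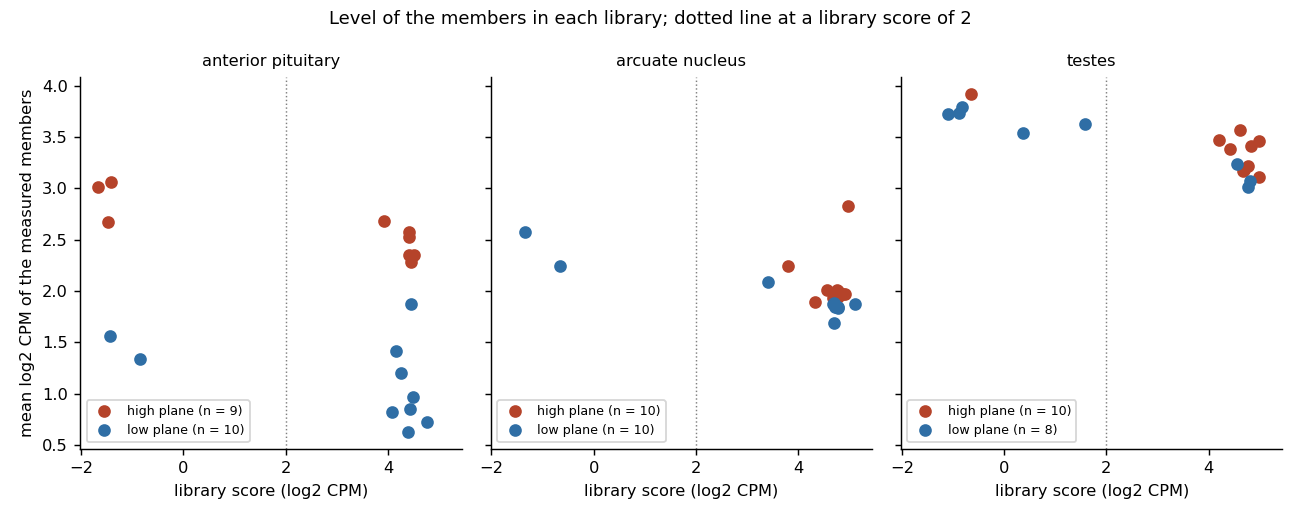
Mean log2 CPM of the measured genes of the set in each library against the library score, for the 3 tissues, with high plane libraries in red and low plane libraries in blue and a dotted line at a score of 2. The diets are apart in the pituitary on both sides of the line, and in the arcuate nucleus C44 is the highest library at 2.82.

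Within the libraries that did not stand apart, the mean level of the set was 2.28 to 2.68 on the high plane and 0.63 to 1.88 on the low plane in the pituitary. In the testes it was 3.11 to 3.57 in 9 high plane libraries and 3.02 to 3.23 in 3 low plane libraries, which overlapped. In the arcuate nucleus it was 1.89 to 2.82 in 10 high plane and 1.68 to 2.09 in 8 low plane libraries, which overlapped too. The testes libraries that stood apart had levels of 3.54 to 3.79 on the low plane and 3.92 in B42 on the high plane, above all other testes libraries, except that B49 (3.57) lay above B26 (3.54). The part of the library score and of depth in the testes and arcuate values was not tested beyond the fits given here.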

How the data were processed

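RNA-seq libraries of 3 tissues from bull calves on a high or low plane of nutrition were grouped by the tissue and diet in their labels. The authors deposited raw read counts per Ensembl gene, whole numbers without normalization. The submitters' processing notes name CASAVA 1.4, STAR, HTSeq and edgeR; genome build and annotation are not given in the sources used here. The testes library labelled A48 has a header that reads B48 and was kept as labelled. The identifiers come without names, and no gene list, marker or promoter was examined.

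The genes and lists were chosen with earlier results of these data known. All sample columns were used. Counts were fitted within each tissue in R 4.3.3 with edgeR 4.0.16 (default filter on diet, TMM, quasi-likelihood test, Benjamini-Hochberg adjustment over all genes, threshold 0.05), and a standard error is the log2 fold change over the root of the F statistic. Log2 CPM used a prior count of 2. Correlations of residuals were computed with numpy 2.4.6. The script was tested on simulated counts. Alternatives were DESeq2 1.42.0, limma 3.58.1 (voom with quality weights), no TMM factors, other filters, the log2 total count or the library score as covariate, each library left out, and another reading of the rule. Fits without the libraries that stood apart were added after seeing the data.

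Genes were named by this rule: the first 10 ranks, the last 2 inside and first 2 outside the first 100, genes called in the testes (up to 8 a direction), the smallest p in the arcuate nucleus, the 5 highest means, the 3 largest ratios and the 3 largest rises in the testes. The genes of ranks 26, 29, 30, 31, 39, 50, 53 and 88 were chosen after their values were seen. Only 4 identifiers are printed, since none has a name. Depth limits low genes: 3 or fewer reads a group are too few to set a level.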

Additional observations from a re-analysis of the deposited data

Results flagged for a closer look

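A search for single libraries far from their group was made in 32 groups of values: the mean level of the set in the 6 groups of libraries, and the CPM of 10 genes in the pituitary and of 3 in the testes. It found 6, where chance would give about 1.6 if the groups were independent, and each was the highest library of its group. The high plane arcuate library C44 had a mean log2 CPM of the set of 2.82, with the next library of its group at 2.24. In the high plane pituitary, rank 31 reached 29.3 CPM in A18, rank 50 reached 67.6 CPM in A36 and rank 64 reached 108.6 CPM in A1. In the low plane pituitary, A19 was highest for rank 97 at 3.74 CPM and for rank 88 at 1.4 CPM. A18 is the only 1 of these libraries that stood apart on the library score.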

How the results depend on the processing

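In the testes, 7 genes were lower and 6 higher with all libraries. Lower genes numbered 10 with DESeq2 or limma, 5 under either other filter and 8 with the library score, but 0 with the log2 total count as covariate (2 genes called among all 15310) and 0 without the libraries that stood apart. Higher genes numbered 10 with DESeq2, 13 without TMM factors, 1 without a filter, 41 with limma, and 0 with the log2 total count, with the library score or without the libraries that stood apart. The calls over all genes shifted as well. Of 15310 genes, limma called 5663 lower and 5456 higher, DESeq2 690 and 1282, and the fit without TMM factors 311 and 2025. Without a filter 158 of 22408 genes were lower and 451 higher. Leaving out 1 library gave 1 to 11 lower and 0 to 20 higher genes, while over all genes it gave 50 to 1367 lower and 108 to 3233 higher. Among these, B42 out gave 11 lower and 20 higher, B31 or B7 out 12 higher, B2 out 1 and 0, B20 out 3 and 0, B21 out 3 and 1, and A48, B32, B12, B5, B49 or B38 out 4 and 1, while B15 or B26 out gave 2 higher. No single gene called in the testes changed direction in any of these fits. The cause of these shifts was not tested, and some of these fits also had fewer libraries. In the arcuate nucleus 0 genes were called in every fit, also with each library left out in turn. Of the 84 genes, 71 were still among the first 100 with TMM factors, 76 with the floor set over all pituitary libraries, 69 to 82 with 1 pituitary library left out (69 without A47) and 39 without the libraries that stood apart. When the identifiers were left out before the first 100 were taken, 7 of 97 genes tested were lower and 6 higher in the testes. Gene lists, markers and promoter motifs were not run, since no name was at hand. No paired analysis was possible because the library numbers are not shared between groups.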
